A study of Mus musculus with 24 samples.

Results

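Among the genomic regions that MEF2C occupied in control cells, 1528 carried no MEF2C peak in any of 3 libraries from cells transfected with siJunb, and these regions are described here. Overlapping or touching peaks of 8 MEF2C lists on chromosomes 1 to 19 and X were merged into 77202 regions. A region counted as held by a library if 1 bp or more was covered by that library's peaks. Both siControl libraries held 10800 of these regions, called control regions, and the 1528 were those that no siJunb library held, called absent regions. They made up 14.1% of the control regions and 1.98% of all merged regions. The regions were chosen by the presence and absence of called peaks in the siControl and siJunb libraries, so values from those libraries are given as descriptions, without a test.

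The cells were iMGT-Myh6-eGFP-MEF, a line of mouse embryonic fibroblasts in which doxycycline switches on Mef2c, Gata4 and Tbx5 and in which an eGFP reporter follows Myh6, a gene of heart muscle. Cells were plated at 300000 per well, transfected with siControl, siJunb or siH1f0, given 1 µg/mL doxycycline a day later and frozen at day 1. Chromatin was then profiled by CUT&RUN, in which a nuclease held by an antibody cuts out the DNA around its target, with about 250000 cells per condition. MEF2C lists came from siControl (n = 2), siJunb (n = 3) and siH1f0 (n = 3) cells at day 1. Lists of H1.0 and of H3K9me3 came from ground-state cells, which were not reprogrammed (n = 2 each), and from siControl cells at day 1 (n = 2 each). All day 1 groups, controls included, carried the 3 induced factors, and the lists do not separate the transgene's MEF2C from the cell's own. Peak lists hold no RNA or protein values, so neither the knockdowns nor the fibroblast identity of the cells could be checked against markers. Samples of a group are called biological replicates in the labels, with no word on what was repeated. The p-values therefore reflect only how these samples vary, in part perhaps for technical reasons.

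MEF2C is a MADS-box transcription factor that binds A/T-rich sites and drives muscle genes, in the heart together with GATA4 and TBX5. JUNB is a subunit of AP-1, a leucine-zipper factor that is abundant at fibroblast enhancers and whose recognition site is close in sequence to the cyclic AMP response element bound by CREB and ATF proteins. H1.0, the product of H1f0, is a linker histone that binds DNA where it enters and leaves the nucleosome, and H3K9me3 is the histone mark of heterochromatin. Absence from a list means that no peak was called, which is not the same as absence of binding.

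The sequence of whole regions was not used here, but 193 RefSeq promoters of 171 genes, each 300 bp long (250 bases before to 50 after the gene start, GRCm38.p6), lay entirely inside 151 of the 1528 regions. They were searched on both strands. The MEF2 consensus was found in 7 of these promoters (3.63%), against 3.11% of the 3564 promoters inside the other control regions and 3.11% of all 32619 promoters. The AP-1 site TGANTCA was found in 11 (5.70%), against 6.48% and 7.85%. The GATA site AGATAA was found in 12 (6.22%), against 6.57% and 11.2%, and the T-box site AGGTGT in 25 (13.0%), against 10.6% and 13.8%. In control regions held by exactly 1 siJunb library the shares were 2.23%, 5.88%, 5.88% and 11.4% for the same motifs. With so few promoters the counts lay near the shares of the other control regions, and no direction is read from them. Promoters in the regions absent under siJunb were GC-rich like those in other control regions, with a median GC content of 59.7% against 60.7%, while the median over all promoters was 53.0%.

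Of the promoters, 4 are shown as examples: Creb5, with the cyclic AMP response element, and some of the 7 with the MEF2 consensus. They were not picked by control signal. Zfp428, which also carries the consensus, has rank 305 by control signal and is not shown, while Usp13 has rank 470. Usp13 encodes a deubiquitinase (chr3:32817376-32817675, plus strand), Il13ra2 a decoy receptor for interleukin 13 (chrX:147429143-147429442, minus strand), Filip1 a filamin-interacting protein (chr9:79977833-79978132, minus strand) and Creb5 a leucine-zipper factor of the CREB family (chr6:53287053-53287352, plus strand). Each is printed 5′ to 3′ on the gene's strand, from RefSeq on GRCm38.p6, with every match to a searched motif in capitals.
Usp13: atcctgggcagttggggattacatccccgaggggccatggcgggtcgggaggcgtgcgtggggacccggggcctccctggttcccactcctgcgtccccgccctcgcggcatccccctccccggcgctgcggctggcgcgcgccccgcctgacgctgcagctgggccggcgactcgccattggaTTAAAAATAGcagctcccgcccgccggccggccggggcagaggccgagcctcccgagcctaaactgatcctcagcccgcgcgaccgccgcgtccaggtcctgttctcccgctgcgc
Il13ra2: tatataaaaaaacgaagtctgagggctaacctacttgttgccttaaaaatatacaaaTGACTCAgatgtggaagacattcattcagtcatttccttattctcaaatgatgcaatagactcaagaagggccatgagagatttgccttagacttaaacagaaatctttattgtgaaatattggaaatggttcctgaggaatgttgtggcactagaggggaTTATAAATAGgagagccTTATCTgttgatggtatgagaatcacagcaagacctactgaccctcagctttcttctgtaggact
Filip1: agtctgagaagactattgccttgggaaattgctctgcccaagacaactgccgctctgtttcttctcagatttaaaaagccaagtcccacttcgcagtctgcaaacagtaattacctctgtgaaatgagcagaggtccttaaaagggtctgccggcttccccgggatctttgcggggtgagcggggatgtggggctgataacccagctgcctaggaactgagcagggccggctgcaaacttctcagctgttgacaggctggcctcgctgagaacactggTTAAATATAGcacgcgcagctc
Creb5: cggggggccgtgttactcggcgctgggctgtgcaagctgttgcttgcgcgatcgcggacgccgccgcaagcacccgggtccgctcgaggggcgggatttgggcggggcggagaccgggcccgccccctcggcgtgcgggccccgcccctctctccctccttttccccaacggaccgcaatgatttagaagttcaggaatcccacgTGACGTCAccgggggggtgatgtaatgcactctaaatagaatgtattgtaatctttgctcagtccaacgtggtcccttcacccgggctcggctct
In Usp13 and Filip1 the capitals mark the MEF2 consensus. In Il13ra2 they mark, from left to right, an AP-1 site, the MEF2 consensus and a GATA site on the opposite strand. In Creb5 they mark TGACGTCA. These are letter matches in a promoter and are not measured binding sites.

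The region over the Usp13 promoter reached a maximum coverage of 3 and 28 in siControl replicates 1 and 2, and of 25, 25 and 11 in siH1f0 replicates 1, 2 and 3. The region over the Il13ra2 promoter reached 7 and 31 in siControl and 20, 23 and 5 in siH1f0. The region over the Filip1 promoter reached 5 and 21 in siControl and 18 and 13 in siH1f0 replicates 1 and 2, with no peak in replicate 3. Coverage is a whole number per base and showed no scaling to depth, so these maxima can be read within a library and not across libraries. Usp13 and Il13ra2 were thus held by all siH1f0 libraries and Filip1 by those with the longer lists.

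mmu-miR-762: gGGGCUGGggccgggacagagc
This is the mature miRNA of Mir762, whose hairpin was the 1 miRNA hairpin of the RefSeq table that lay in a region absent under siJunb (chr7:127707553-127709937). It lies at chr7:127708534-127708555 on the plus strand of GRCm38.p6, and its seed, bases 2 to 8, is in capitals. The region had maxima of 7 and 13 in siControl and of 13, 14 and 8 in siH1f0, so all 5 of those libraries held it. The lists say nothing of the level of the miRNA.

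The libraries differed in ways that touch every count here. The MEF2C lists held 11717 to 48997 peaks, with a median maximum coverage per peak of 9 and 20 in siControl, 17, 16 and 8 in siH1f0, and 7, 7 and 9 in siJunb. The deposited lists carry sample names of 2 styles. Among the MEF2C lists the first style covers siControl replicate 1, siJunb replicate 1 and siH1f0 replicate 3, and the second covers the rest, and no source used here says what the styles stand for. Within the first style, 7161 of 13061 siControl regions (54.8%) were absent from siJunb, and within the second 8826 of 25614 (34.5%). The number of regions absent under siJunb rested on the libraries as well. It was 8129 with siControl replicate 1 left out, 3175 with siControl replicate 2 left out and 2863 with siJunb replicate 2 left out. Leaving out a library removes a condition of the rule, so the number could only rise, and only the size of the rise is informative.

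The regions absent under siJunb carried weak control signal. Each region was ranked in each list by the total signal of its strongest peak, as a percentile of all peaks of that list. In siControl replicate 1 the median percentile was 35.4, against 64.0 in the other control regions, and in replicate 2 it was 48.8 against 80.6. The median maximum coverage was 8 against 10 in replicate 1 and 23 against 39 in replicate 2. The regions were also narrower, with a median width of 2238 bp against 4078.5 bp. Part of this gap follows from the rule. Merged regions include siJunb peaks, which can widen the other control regions and by definition no absent region. Control regions held by 1, 2 and 3 siJunb libraries had median widths of 2868, 3763 and 5111 bp.

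Control regions were then divided into 5 equal groups by mean siControl percentile. Regions absent under siJunb numbered 799 of 2160 in the weakest group (37.0%), then 439 (20.3%), 204 (9.44%), 79 (3.66%) and 7 of 2160 in the strongest (0.324%). Only 37 of the 1528 lay above a mean percentile of 80, against 3214 of the other control regions. The absent regions were therefore rare, though present, among the strongest control regions.

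**Figure D1:**
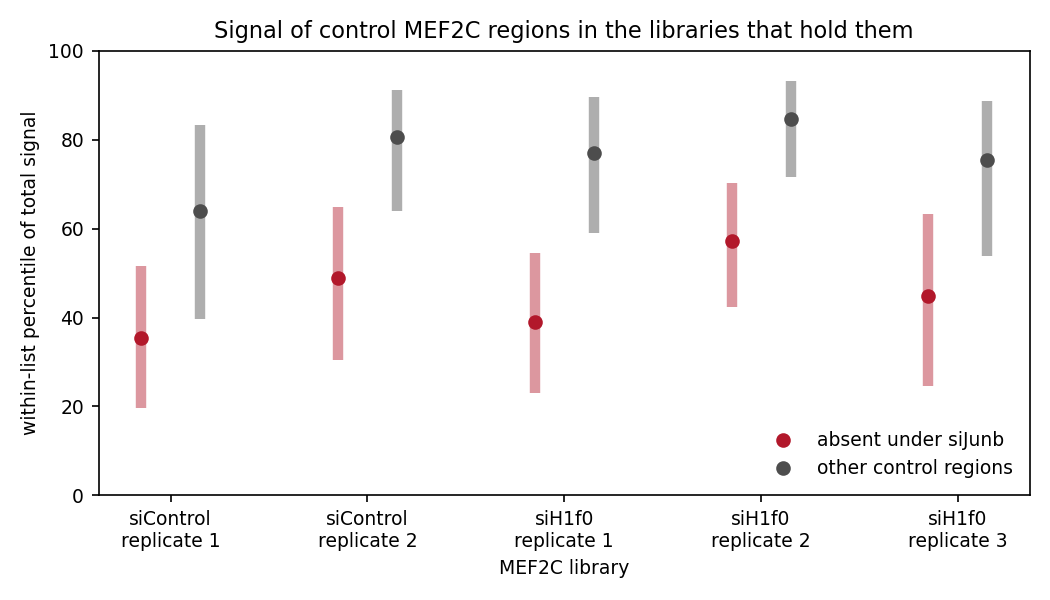
Within-list percentile of total signal (y axis) for control regions in each siControl and siH1f0 library that held them. Points are medians and bars span the quartiles. Regions absent under siJunb (red) had lower medians than other control regions (grey) in all 5 libraries, from 35.4 against 64.0 in siControl replicate 1 to 57.3 against 84.8 in siH1f0 replicate 2.

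The boundary of the set was soft. A further 2017 control regions were held by exactly 1 siJunb library, 1335 of them by replicate 2, the longest list, 323 by replicate 1 and 359 by replicate 3. In those libraries their median percentiles were 60.7, 41.5 and 42.3. On the siControl side, 8248 regions were held by 1 siControl library and no siJunb library. From the regions absent under siJunb, the nearest siJunb peak lay a median of 15.7 kb away (quartiles 4.52 and 57.3 kb). It lay within 1 kb for 103 (6.74%) and within 10 kb for 630 (41.2%). These distances were not taken for other regions or positions, so they have no background and are not read as closeness.

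Most of these regions, 1396 of 1528 (91.4%), were held by at least 1 library of cells transfected with siH1f0. Of the 1528, 460 were held by all 3 siH1f0 libraries (30.1%), 580 by 2 (38.0%), 356 by 1 (23.3%) and 132 by none (8.64%). The shares over all control regions were 70.9% in all 3 and 1.78% in none. The siJunb and siH1f0 comparisons share the same siControl libraries. The most frequent pattern was presence in siH1f0 replicates 1 and 2 and not in 3, with 497 regions (32.5%), followed by all 3 and by replicate 2 alone with 306 (20.0%).

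**Figure D2:**
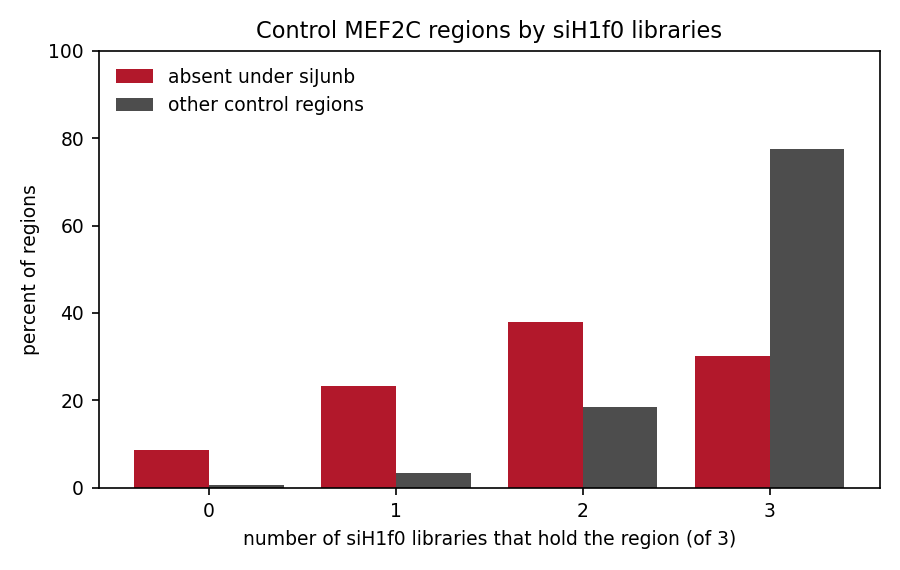
Percent of control regions (y axis) by the number of siH1f0 MEF2C libraries that held them (x axis), for the 1528 regions absent under siJunb (red) and the 9272 other control regions (grey). The red bars are highest at 2 libraries (38.0%), the grey bars at 3 (77.6%).

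In siH1f0 replicate 1, 65.2% of the regions absent under siJunb were held, against 94.9% of the other control regions. In replicate 2 the shares were 87.6% and 98.7%, and in replicate 3 they were 36.7% and 79.4%. The share was thus lower in 3 of 3 siH1f0 libraries, by 27.8 ± 15.9 percentage points (SD, n = 3). An exact two-sided sign-flip permutation test over the 3 libraries gave p = 0.25, the smallest that 3 libraries allow, so the design could not reach 0.05. The test is also not free of the selection. The other control regions include siJunb peaks that can widen them, and a wider region is more easily held. Their control signal was higher too, with a median mean percentile of 70.3 against 40.9. The difference held within each of the 5 groups of control signal in all 3 libraries. In the weakest group 50.9%, 80.2% and 25.7% were held in replicates 1, 2 and 3, against 78.8%, 93.7% and 45.6% of the other control regions. The 7 in the strongest group are too few to read a share from. Restricting the comparison to 916 absent and 1844 other regions with a control percentile of 25 to 60 and a width of 1000 to 4000 bp left a difference of -17.1 ± 8.42 points. Without siControl replicate 2 the difference was -51.8 points. The share held by no siH1f0 library rested on the libraries too: it was 28.7% with siControl replicate 1 left out, 44.4% with siControl replicate 2 left out and 5.38% with siJunb replicate 2 left out. It was 17.7% when every list was cut to the length of the shortest. The share held by all 3 was 11.5% without siControl replicate 1 and 15.1% without siControl replicate 2.

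Of the 12 absent regions with the strongest control signal, 9 were held by all siH1f0 libraries, 2 by replicates 1 and 2, and 1 by none. They fall in the strongest and next strongest of the 5 groups of control signal. In the strongest group, siH1f0 replicates 1, 2 and 3 held 99.9%, 99.95% and 99.4% of the other control regions. In the next group they held 99.7%, 99.9% and 91.7%. Of the 12, 5 lay inside a protein-coding gene, and 67.1% of the other control regions at percentile 75 to 100 overlapped one. Of the 12, 3 lay more than 50 kb from any protein-coding gene. The strongest lay inside Cadm2, which encodes a synaptic cell adhesion molecule (chr16:66920238-66923939). Its maximum coverage was 15 and 56 in siControl replicates 1 and 2, 25, 41 and 11 in siH1f0 replicates 1, 2 and 3, and no peak was called in siJunb. Its percentile was 92.0 and 90.8 in siControl and 78.5, 87.8 and 68.7 in siH1f0, so it stood in the upper part of each list that held it.

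The second strongest went the other way under siH1f0. It lay at chr8:19783514-19787805, 29.9 kb from 4930467E23Rik, and overlapped the annotated gene Gm10060. Its maxima were 9 and 43 in siControl (percentiles 88.0 and 93.0), and no siJunb or siH1f0 library held it. Of the top 12 it was the only region that none of the siH1f0 libraries held. Its control maximum lay under H3K9me3 in 2 of 4 lists.

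The other intragenic regions among the 12 were held by every siControl and siH1f0 library. The region in Dscam, a cell adhesion molecule of neurons (chr16:97059060-97061531), had maxima of 25 and 79 in siControl and of 28, 41 and 17 in siH1f0. The region in Olfm3, a secreted olfactomedin protein (chr3:114994785-114997148), had maxima of 22 and 88 in siControl and of 39, 62 and 11 in siH1f0. The region in Atrnl1, an attractin-like membrane protein (chr19:58037830-58040895), had 23 and 59 in siControl and 25, 49 and 12 in siH1f0. In each of these the siControl replicate 2 maximum was the highest, in a library whose coverage was high throughout. Fggy, a carbohydrate kinase gene, held the last of the intragenic regions (chr4:95702428-95704883), with maxima of 12 and 37 in siControl and of 18, 25 and 10 in siH1f0.

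Other strong regions lay between genes. A region 9.68 kb from Map4k4, a kinase of stress signalling (chr1:39887860-39891219), had maxima of 14 and 41 in siControl and of 22, 33 and 12 in siH1f0. A region 22.1 kb from Itgb1, the beta-1 integrin by which fibroblasts hold to matrix (chr8:128661504-128663560), had 23 and 56 in siControl and 27 and 41 in siH1f0 replicates 1 and 2, with no peak in replicate 3. A region 6.00 kb from Rhag, a Rh-associated glycoprotein of red cells (chr17:40802316-40805098), had 16 and 54 in siControl and 16 and 30 in siH1f0 replicates 1 and 2, again with none in replicate 3. The regions nearest to Wac, Adgrl4 and Akr1e1 lay 191, 319 and 221 kb from those genes, and all siH1f0 libraries held them. Under an alternative that merged peaks up to 500 bp apart, 11 of the 12 remained, and under the other 12 settings in which they were followed all 12 did. Most of those settings could not have removed any of them. Leaving out a library only loosens the rule, and cuts by signal or list length keep such strong control peaks. None of the 12 lies on chromosome 5 or X.

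Counts for gene lists were read against the background of all protein-coding genes: 928 of 21631 (4.29%) had a region absent under siJunb in or within 5 kb of the gene, and 5641 (26.1%) had another control region. This background was not matched for gene length and the lists are short, so a share above it is not read as a preference. Over the 15 lists, 15 of 234 genes (6.41%) had an absent region, and for 5 of the 15 it was the only kind of control region. No member of the 21 cardiac transcription factor and natriuretic genes, the 19 TGF-beta and SMAD genes, the 9 linker histones, the 10 smooth muscle genes or the 14 skeletal muscle genes had an absent region. Other control regions were found at 6, 13, 5, 4 and 2 of these genes. Of 10 blood and immune and 9 hepatocyte genes, which mark other cell types, none had an absent region.

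The heart muscle genes gave 1 of 30 sarcomere and contractile genes (3.33%), a share near the 4.29% of all coding genes, while 11 of the 30 held another control region. It was Tnni3k, which encodes a kinase of heart muscle that binds troponin I, and the gene was known from earlier results when the list was made. The region (chr3:154938001-154940484) had rank 18 of the 1528 by control signal. Its maxima were 16 and 127 in siControl and 87, 87 and 8 in siH1f0, and no siJunb library held any merged MEF2C region in or within 5 kb of the gene.

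Fibroblast genes had 3 of 27 (11.1%). Regions inside Col3a1 (chr1:45321411-45323409) and Col5a1 (chr2:27886435-27890475), both fibrillar collagens, had maxima of 8 and 25 and of 9 and 15 in siControl. Their control signal was weak or uneven. The Col3a1 region ranked 1400 of the 1528 by control signal, with siControl percentiles of 22.3 and 12.5. The Col5a1 region ranked 878, with percentiles of 1.84 and 72.1. In siH1f0 the Col3a1 region was held by replicate 1 alone, with a maximum of 14, and the Col5a1 region by replicates 1 and 2 with 10 and 16. Another lay 1.17 kb from Thy1, a surface protein of fibroblasts (chr9:44039368-44042215), with 7 and 33 in siControl and 19 and 19 in siH1f0 replicates 1 and 2. By control signal it ranked 225. Col3a1 carried no merged region in any siJunb library, Col5a1 carried one in 1 of 3, and Thy1 in 3 of 3. On the list 14 genes held another control region, Thy1 among them.

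Cofactors of MEF2 had 3 of 14 (21.4%), while 11 of the 14 (78.6%) held another control region. The 3 were Hdac9, a class IIa deacetylase that binds and represses MEF2, Tead1, a transcription factor of the Hippo pathway, and Vgll4, a TEAD cofactor. All 3 genes held other control regions, 6, 3 and 5 of them, and each gene had a merged region in all siJunb libraries. The Hdac9 region (chr12:34803024-34805132) had maxima of 5 and 21 in siControl and of 14 in siH1f0 replicate 2, with no peak in the other siH1f0 libraries. The Tead1 region (chr7:112822314-112825771) had 7 and 19 in siControl and 12 in siH1f0 replicate 2. By control signal the Hdac9, Tead1 and Vgll4 regions ranked 845, 706 and 1304 of the 1528. At these genes single regions, and not the gene's whole set of MEF2C regions, were absent under siJunb.

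Energy genes had 2 of 14 (14.3%), while 5 of the 14 held another control region. The region inside Ppargc1a, the coactivator PGC-1 alpha of mitochondrial biogenesis (chr5:51636591-51640835), had maxima of 12 and 16 in siControl and of 26, 41 and 10 in siH1f0. Its percentile was 87.4, 85.8 and 92.4 within the siH1f0 lists and 40.8 and 60.03 within the siControl lists, which differ in length. The gene held 8 other control regions and had a merged region in every siJunb library. The region within 5 kb of Esrra, an orphan receptor that works with PGC-1 alpha, overlapped Prdx5 and Trmt112 (chr19:6908915-6910905). It had 6 and 22 in siControl and 10, 14 and 6 in siH1f0. Its control signal was weak, at percentiles 3.89 and 27.8, rank 1425 of the 1528.

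Adhesion genes of neurons had 3 of 20 (15%), while 5 of the 20 held another control region. Dscam and Tenm4, a teneurin of synaptic contacts, were among the 3, and that list was drawn up with the Dscam region known. The Tenm4 region (chr7:96170647-96175166) overlapped a Tenm4 promoter. It had maxima of 6 and 17 in siControl and of 13 in siH1f0 replicate 2, with no peak in the other siH1f0 libraries. Kcnq1, a potassium channel of cardiac repolarisation, was 1 of 16 calcium and channel genes, and its region (chr7:143292784-143297325) covered the promoter of Kcnq1ot1, the imprinted transcript that runs through the gene. It had maxima of 12 and 12 in siControl and of 11, 13 and 11 in siH1f0. Bach2, a leucine-zipper repressor, was 1 of 13 AP-1 family genes, with 9 and 25 in siControl and 13, 26 and 8 in siH1f0, and Vwf, an endothelial marker, was 1 of 8 endothelial genes, with 6 and 12 in siControl and 13 and 12 in siH1f0 replicates 1 and 2.

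Absent regions lay farther from genes than other control regions. They overlapped a protein-coding gene in 820 of 1528 cases (53.7%), against 69.8% of the other control regions, and 128 (8.38%) lay more than 50 kb from any annotated gene, against 2.502%. In or within 5 kb of an annotated gene lay 70.2% against 84.7%, a difference of -14.5 points. It was -9.42 points without siJunb replicate 2. Promoters were overlapped by 168 of 1473 regions (11.4%) against 2521 of 8971 (28.1%), with chromosome 18 left out because the promoter table used here does not cover it. The promoter share was 10.9% over all merged regions and 12.2% in regions held by 1 siControl and no siJunb library. The absent regions thus stood near the share of all merged regions, and the other control regions stood above it. A protein-coding gene was overlapped by 62.7% and 58.1% of those 2 sets. Position does not vary between samples, so these shares have no test.

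Widths differed between the sets, so the position of the control signal maximum was placed as well. It lay inside a protein-coding gene for 48.8% of absent and 56.6% of other control regions, and within 1 kb of a promoter for 9.78% and 19.5%. Among the other control regions promoter overlap was 19.6% in those held by 1 siJunb library, 26.9% in those held by 2 and 32.5% in those held by 3. Among absent regions it was 9.52%, 8.38%, 13.1% and 12.1% in those held by 0, 1, 2 and 3 siH1f0 libraries.

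The contrast was widest at high control signal. At a mean siControl percentile of 75 to 100, 41.1% of 73 absent regions overlapped a protein-coding gene, against 67.1% of 3946 others, and 2.86% overlapped a promoter, against 26.8%. None of these absent regions had its control maximum within 1 kb of a promoter, against 15.1% of the others. Widths also differed most in this bin, with medians of 2953 and 5154.5 bp, and a wider region overlaps more. By the control maximum alone, 41.1% of the absent and 55.0% of the other regions in this bin lay inside a protein-coding gene. At a percentile of 0 to 25 the promoter shares were 12.1% and 23.3%.

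**Figure D3:**
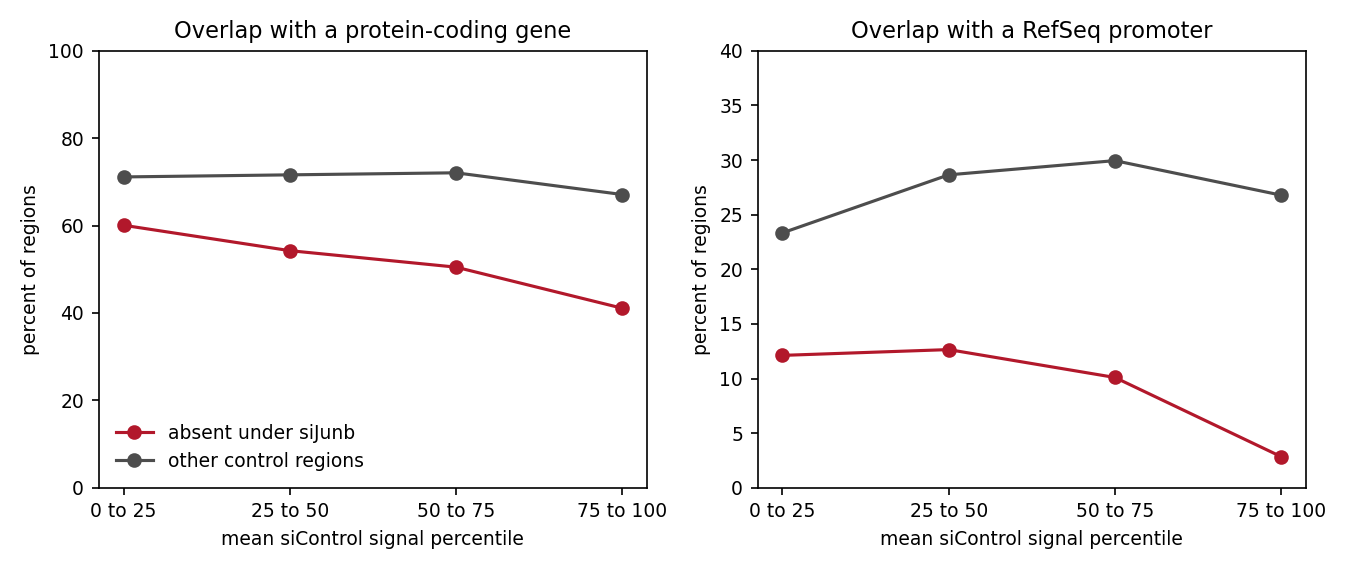
Percent of control regions (y axis) that overlap a protein-coding gene (left) or a RefSeq promoter (right), by mean siControl signal percentile (x axis), for regions absent under siJunb (red) and other control regions (grey). Red lies below grey in every bin, and the red point of the strongest bin in the right panel is at 2.86%.

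Genes with an absent region in the body were long. The 769 such protein-coding genes had a median length of 99.0 kb, against 37.8 kb for the 4872 genes with another control region and 17.3 kb for all 21631. A longer gene has more room for a region, and the 2 gene sets rest on unlike numbers of regions, 820 and 6475. Promoter overlap differed between the sets as well. Gene length is therefore not read as a trait of the absent regions. Of the 769, 338 (44.0%) held another control region too. The genes with the most absent regions, 3 each, were Asph, a hydroxylase gene whose products include junctin, Mctp1, Pcdh7, a protocadherin, Tbc1d5 and Tmeff2, with lengths of 220, 651, 417, 448 and 287 kb. Mctp1 and Tmeff2 had no other control region, and Pcdh7 had 6. All 3 absent regions of Pcdh7 were held by each siH1f0 library, while at Mctp1 replicates 1, 2 and 3 held 1, 3 and 1.

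The absent regions overlapped promoters of 190 annotated genes, 161 of them protein-coding. The strongest covered the promoter of Gemin8, of the complex that assembles splicing particles (chrX:166169776-166173728), with maxima of 12 and 22 in siControl and of 12, 20 and 6 in siH1f0. Next came Rrm2, the small subunit of ribonucleotide reductase (chr12:24706265-24711908), with 9 and 22 in siControl and 11 and 11 in siH1f0 replicates 1 and 2. At Creb5 (chr6:53286414-53290374) the maxima were 10 and 77 in siControl and 41, 46 and 12 in siH1f0. The other promoters among the strongest 10 were those of Chac2, Caprin1, Mterf1b, Samd9l, Prpf39, Tbc1d12 and Sptssa, which were held by 2 or 3 siH1f0 libraries each. Caprin1 encodes an RNA-binding protein of stress granules, Prpf39 a splicing factor and Sptssa a subunit of serine palmitoyltransferase.

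The absent regions were spread unevenly over chromosomes. They made up 68 of 205 control regions on chromosome X (33.2%), 124 of 504 on chromosome 3 (24.6%) and 69 of 286 on chromosome 14 (24.1%). The lowest shares were 60 of 970 on chromosome 5 (6.19%) and 54 of 705 on chromosome 11 (7.66%). The peak lists as a whole moved with this. Chromosome 5 held 12.6%, 15.9% and 18.9% of the peaks of the siJunb lists, 10.2% and 9.67% of those of the siControl lists, and 9.97%, 10.4% and 12.1% of those of the siH1f0 lists. Chromosome 3 held 3.35%, 2.30% and 1.97% of siJunb peaks, 4.27% and 4.64% of siControl peaks, and 4.39%, 4.43% and 3.77% of siH1f0 peaks. The siH1f0 libraries, compared with the same siControl libraries, were uneven too. They held 82.4%, 95.1% and 59.0% of the control regions on X, the lowest share of any chromosome in each of the 3, and 91.8%, 97.8% and 77.3% of those on chromosome 5. The part of this shift in the results was not tested. Without chromosome 5 there were 1468 absent regions, 14.9% of the control regions left.

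**Figure D4:**
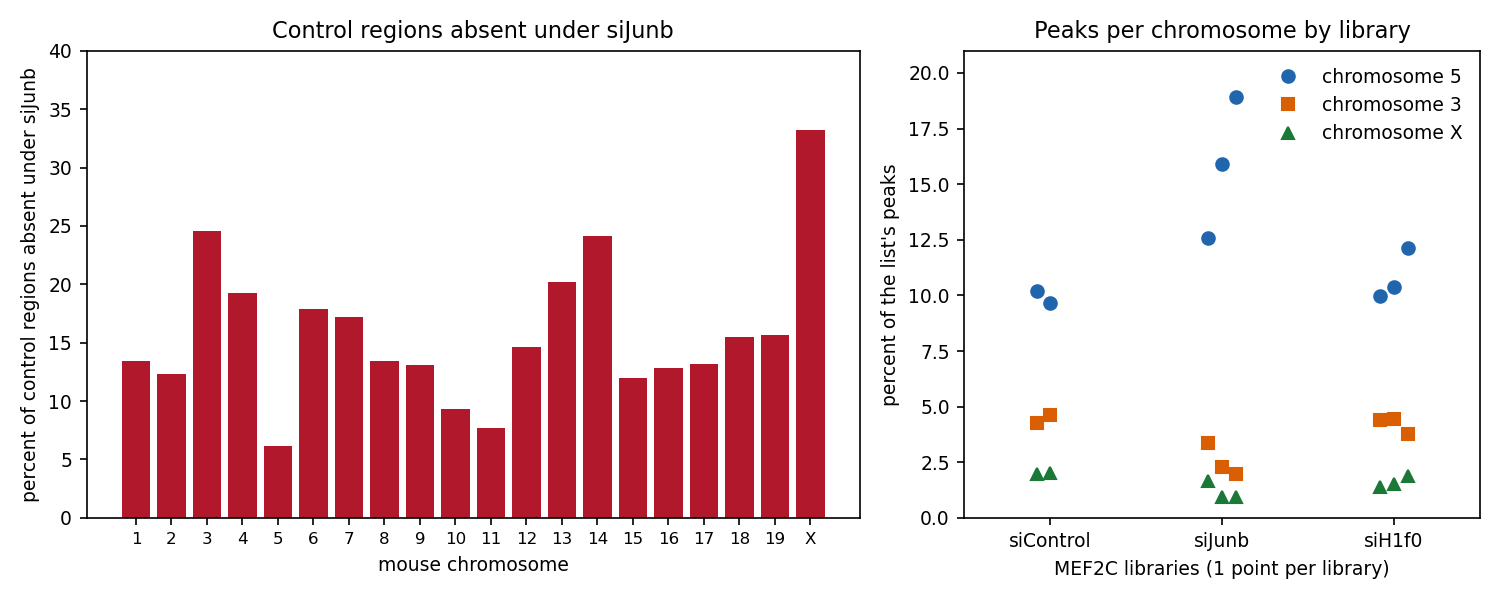
Left, percent of control regions on each mouse chromosome that were absent under siJunb (y axis), highest on X (33.2%) and lowest on 5 (6.19%). Right, percent of each MEF2C list's peaks on chromosomes 5, 3 and X (y axis), 1 point per library by siRNA group, with siJunb lists at 12.6% to 18.9% on chromosome 5.

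The linker histone H1.0 was mapped in 4 lists that differed widely, with 85700 and 412687 peaks in the ground state and 722039 and 32912 at day 1 for replicates 1 and 2. These peaks covered 92.9 and 1109 Mb in the ground state and 911 and 28.5 Mb at day 1. The short lists, ground-state replicate 1 and day 1 replicate 2, carry the first naming style and the long lists the second. Shares under H1.0 are therefore given list by list, as the percent of regions whose control maximum lay under an H1.0 peak. In the ground state they were 7.20% against 9.45% of the other control regions in replicate 1 and 73.7% against 77.4% in replicate 2. At day 1 they were 67.8% against 76.1% and 4.06% against 5.82%. No share over all bases was taken, so the high values in the long lists are not read as a preference. The share was lower in the absent regions in 4 of 4 lists, with a mean difference of -4.01 ± 3.00 points (SD, n = 4) and an exact two-sided sign-flip permutation p = 0.13, the smallest that 4 lists allow. The difference was -2.56 points without the day 1 H1.0 replicate 1 and -8.44 points without MEF2C siControl replicate 2. It was -9.89 points when any 1 bp under the mark counted, -2.19 points in the restricted range of control signal and width (exact sign-flip permutation p = 0.25) and -1.92 points against control regions held by exactly 1 siJunb library. With a requirement that at least 50% of the region lie under the mark it was -0.250 points (exact sign-flip permutation p = 1).

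Only 13 absent regions had their control maximum under H1.0 in all 4 lists (0.851%, against 1.19%), and 204 (13.4%, against 9.76%) were under it in none. The strongest of the 13 lay 41.7 kb from Eya4, a transcriptional coactivator (chr10:23058939-23061286), with MEF2C maxima of 11 and 47 in siControl and of 26, 20 and 5 in siH1f0. Others lay inside Itga1, the alpha-1 integrin, inside Frmd5, Megf11, Ptprm and Asap1, and near Rab10 and Clasp1. Between states, 40.4% ± 47.0 (SD, n = 2) of absent regions were under H1.0 in the ground state and 35.9% ± 45.1 (SD, n = 2) at day 1, with an exact two-sided permutation p = 0.667 where the smallest possible was 0.33. The 2 lists of a state differed far more than the states did.

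H3K9me3 lay at few of the absent regions. Their shares were 1.31% against 1.11% of other control regions and 3.86% against 3.56% in ground-state replicates 1 and 2, and 1.57% against 1.48% and 3.53% against 3.19% at day 1. The share was higher in 4 of 4 lists, by 0.234 ± 0.112 points (SD, n = 4; exact two-sided sign-flip permutation p = 0.13, the smallest possible). The direction turned under other settings: the difference was -2.71 points when any 1 bp under the mark counted and -0.257 points in the restricted range of control signal and width. Without siControl replicate 1 it was 0.488 and without siControl replicate 2 it was 1.55. No H3K9me3 peak lay at the control maximum in any list for 1449 of 1528 (94.8%), against 95.05%. In the ground state the share under H3K9me3 was 2.59% ± 1.80 and at day 1 it was 2.55% ± 1.39 (SD, n = 2 each, exact permutation p = 1).

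**Figure D5:**
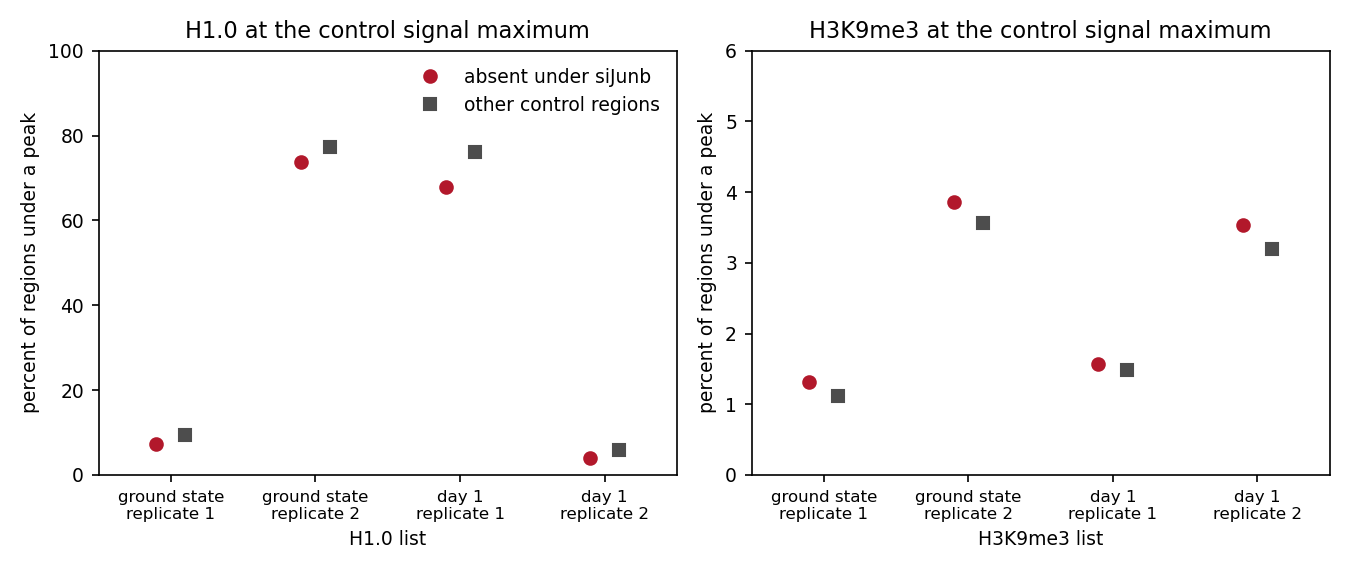
Percent of regions whose siControl signal maximum lay under a peak (y axis) in each of 4 H1.0 lists (left) and 4 H3K9me3 lists (right), for regions absent under siJunb (red circles) and other control regions (grey squares). Red lies below grey in all 4 H1.0 lists and above it in all 4 H3K9me3 lists, with differences of up to -8.34 and 0.342 points. The y axes differ.

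Absent regions that no siH1f0 library held lay under H3K9me3 more often than those that all siH1f0 libraries held, in 4 of 4 lists. In the 4 lists their shares were 2.27%, 6.06%, 6.82% and 5.30%, against 0.652%, 2.39%, 1.09% and 3.04%. Those held by 1 siH1f0 library stood at 2.81%, 6.18%, 1.40% and 4.78%, above the regions held by none in both ground-state lists, so the higher share was not particular to the 132. Those held by 2 stood at 0.690%, 3.10%, 0.862% and 2.76%. The 4 classes hold 132, 356, 580 and 460 regions, and the comparison was chosen after the values were seen and was not tested. After the region near 4930467E23Rik, the strongest of the 132 lay 372 kb from Csmd1, a large complement-control membrane protein (chr8:15519070-15520568), with maxima of 36 and 179 in siControl and a control maximum under H3K9me3 in 3 of 4 lists. The next lay 67.4 kb from Hrh1, the histamine H1 receptor (chr6:114550666-114555101), with 12 and 28 in siControl and no H3K9me3. The others among the top 6 lay in Gm5373 and near Krt23, a keratin, and Prl2c2, a placental prolactin relative.

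Just 10 absent regions had their control maximum under H3K9me3 in all 4 lists. The strongest lay 117 kb from Fam174a (chr1:95451857-95452340), with maxima of 27 and 63 in siControl and of 27 in siH1f0 replicate 3 alone. Others lay inside Hecw1, across Sp110 and Sp140, which belong to a cluster of nuclear body genes, inside Chmp4c, and near Olfr15, Smok2a, Sp3 and Mup17. Several of these belong to families with near-identical copies in the genome (Sp110 and Sp140, the Mup genes, the olfactory receptors), and so do Prl2c2 and Prl2c3. No source used here says how reads that fit several copies were placed, so the regions at those genes are uncertain.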

How the data were processed

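CUT&RUN peak lists of 16 samples, 1 list per sample, were used. The 8 IgG samples were not analysed here. The authors made the lists with Bowtie2 and SEACR on mm10, per the submitters' processing notes; versions, the use of IgG and the treatment of duplicates were not given in the sources used here. The deposited files give signal per peak, as the sum and the maximum of coverage in whole numbers. These are the authors' own scores and served only to rank, describe or filter peaks inside 1 list. The labels give 30 M reads per sample; no source used here gives the aligned reads, and list length and the spread between samples stood in for depth.

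Here peaks were merged as described above, with coordinates 1-based on mm10. Genes (49554, without strand or exons, so exon and intron are not told apart) and promoters came from RefSeq tables of GRCm38.p6. Named genes are the 12 strongest absent regions, the 6 strongest held by all and by no siH1f0 library, up to 8 under each mark in all its lists, genes with 3 or more, all genes of 15 lists with an absent region, the 10 strongest with a promoter and the 5 widest. The lists covered hepatocyte, endothelial, blood and immune, neuronal and synaptic adhesion, skeletal muscle and smooth muscle genes, class IIa deacetylases and MEF2 cofactors, TGF-beta and SMAD, linker histones, the AP-1 family, fibroblast and matrix, energy metabolism, calcium handling and channels, cardiac transcription factors, and sarcomere genes. A gene of the adhesion list is not reported here. The regions and lists were chosen with earlier results of these data known, so no test here is independent of them. Tests were exact sign-flip or label permutations over libraries, two-sided, at a threshold of 0.05 that none could reach. Alternatives changed the overlap, merging, signal cut, list length, annotation distance, comparison set, chromosomes and libraries. The scripts were tested on simulated peak lists and used Python 3.11.15, numpy 2.4.6 and pandas 2.3.3.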

Additional observations from a re-analysis of the deposited data

How the results depend on the processing

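The number of absent regions was 1152 to 1642 under 8 settings (200 bp of overlap, lists cut to equal length, the upper 75% of peaks, other merging, no chromosome 5 or X). It was 685 with the upper 50% of peaks by signal, 7161 within the first naming style, 8826 within the second, and 1851 to 8129 with each library left out in turn. The settings by naming style and by left-out library drop conditions of the rule, so they could only raise the number. The lower share held by siH1f0 kept its direction under all 13 alternatives, from -15.4 points against regions held by exactly 1 siJunb library to -51.8, with -20.4 to -51.8 when leaving out each library. The share in or within 5 kb of a gene stayed lower under all 14. It differed by -7.78 points with the control maximum in protein-coding genes, -11.7 against regions held by 1 siJunb library, -5.87 within 50 kb, and -9.42 to -13.8 with each library left out. The mean H1.0 difference kept its direction under all 17. With at least 50% of the region under the mark it shrank to -0.250 ± 3.23 points (SD, n = 4), a spread far larger than the mean. The mean H3K9me3 difference reversed in 2 of 17, to -2.71 (any 1 bp) and -0.257 (restricted signal and width). With replicate number as a block, the day 1 minus ground-state difference in the share of absent regions under the mark was -4.52 points for H1.0 (exact sign-flip p = 1) and -0.0327 points for H3K9me3 (exact sign-flip p = 1), and the block changed no call. Deviations of same-numbered samples correlated at -0.204 for H1.0 and 0.265 for H3K9me3, over 1528 regions; with the numbers crossed the exact p was 0.5 for H1.0, the smallest that 2 pairs allow, and 1 for H3K9me3. For H1.0 the 2 naming styles cross the replicate numbers: ground-state replicate 1 and day 1 replicate 2 carry the first style. The block by number thus pairs H1.0 lists of unlike style, with an SD of 92.1 points between pairs, against 1.94 points with the numbers crossed. The cause of these changes was not tested. With 2 or 3 lists per group, no knockdown check, unscaled coverage and no region sequence, weak or partly lost binding below the calling threshold could not be told apart from absence. The alternatives for chromosomes, naming styles, the control maximum in genes and the crossed numbers were chosen after seeing the data.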

Other observations

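The palindromic cyclic AMP response element TGACGTCA, searched on both strands and chosen after seeing the data, was found in 12 of the 193 promoters inside absent regions (6.22%), against 2.75% of the 3564 promoters inside other control regions and 1.80% of all 32619 promoters. Among promoters inside control regions held by exactly 1 siJunb library the share was 3.85%. The 12 lay in 9 of the 151 absent regions with a whole promoter. The promoters of Larp7 and Zgrf1 overlap, as do those of Ttc19 and Zswim7. A pair of Ralgapa1 promoters lies in the same region without overlapping. The other holders were Mterf1b, Creb5, Smdt1, Neurl1a, Bdp1 and Ankrd13c. Larp7 binds the 7SK RNA that holds back transcription elongation, Smdt1 is a subunit of the mitochondrial calcium uniporter and Bdp1 is part of the initiation factor of RNA polymerase III. No test was run, because promoters are not replicates and the motif was picked with the counts in view.

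The widest absent region spanned 8645 bp in Opn5, an opsin gene (chr17:42579540-42588184), with maxima of 10 and 43 in siControl and of 20, 22 and 7 in siH1f0. The next widest lay 52.7 kb from Prl2c3 with 8502 bp. Its control maximum lay under H3K9me3 in 3 of 4 lists, and siH1f0 replicate 3 alone held it. The region over Txnip, an inhibitor of thioredoxin (chr3:96556715-96564352), spanned 7638 bp and stood at percentile 0.738 within siControl replicate 1 and 76.6 within replicate 2. Such a gap shows how far the siControl lists can differ at 1 region.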
